A study of Rattus norvegicus with 3 samples.

Results

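Denervated soleus was compared with nerve-intact soleus of rats that had received the same irradiation. The soleus is a slow postural muscle of the hind limb. The comparison took the log2 value of the denervated pool (DN) minus that of the intact pool (Ct) for every gene whose signal was bright enough, and 10154 of 14506 named genes were. A gene was represented by the probe set with the highest mean over the 3 arrays, and it was kept when that mean reached the 30th percentile, 5.72. At this limit, Ppfia2 and Tnfrsf14 lay just outside with differences of -0.05 and 0.00, and Il9r and Prss21 lay just inside with differences of -0.10 and 0.00.

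The study, titled as one of simulated spaceflight, used rats of a strain labelled Brown, housed from the age of 7 weeks. Ct rats received continuous irradiation for 2 weeks to a total of 50 mSv, DN rats received this irradiation and denervation, and TS rats received it with tail suspension, which takes the load off the hind limbs. Each pool held RNA from 6 rats and was measured on 1 Affymetrix Rat Gene 1.0 ST array, per the sample labels. The text of the series speaks of 2 arrays, whereas 3 samples have values, and this difference is not resolved by the sources used here. There was therefore no spread between samples and no test, and each value describes a pool. Since Ct was irradiated too, the comparison holds denervation apart from irradiation only within irradiated animals, and an unirradiated group was not analysed here. The labels do not say which nerve was cut or on which day. TS values are given beside those of DN, and both differences use the same Ct array.

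Values are given on the log2 scale, so a difference of 1 is a 2-fold difference. Over the genes compared, the median level was 8.12 on the Ct array, 8.13 on the DN array and 8.25 on the TS array, and the median of the gene-by-gene difference DN minus Ct was 0.00. The probe summary returned exactly equal values in Ct and DN for 4355 genes (42.9%), so a value of 0 is no evidence that both pools held the same amount. The label of the tissue was borne out by its markers, since skeletal actin Acta1 read 13.99 in Ct, 13.90 in DN and 13.99 in TS, the slow myosin Myh7 read 13.62 in Ct, 13.06 in DN and 13.24 in TS and the slow troponin Tnnc1 read 13.46 in Ct, 13.19 in DN and 13.35 in TS. Macrophage (14) and endothelial (13) markers were above the filter too. At the 2-fold limit, 227 genes (2.24% of those compared) were higher in DN and 227 (2.24%) were lower. At 1.5-fold, 501 genes (4.93%) were higher and 562 (5.53%) lower. These shares are the background against which the gene lists are read, also where they are not repeated. The lists were chosen with earlier results of these data known, so a list count beside these shares is a description only. The 51 lists of genes by function held 1695 members, 1467 of them named by 1 symbol on the array and 1426 past the filter, with a gene counted in each list that holds it.

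**Figure D1:**
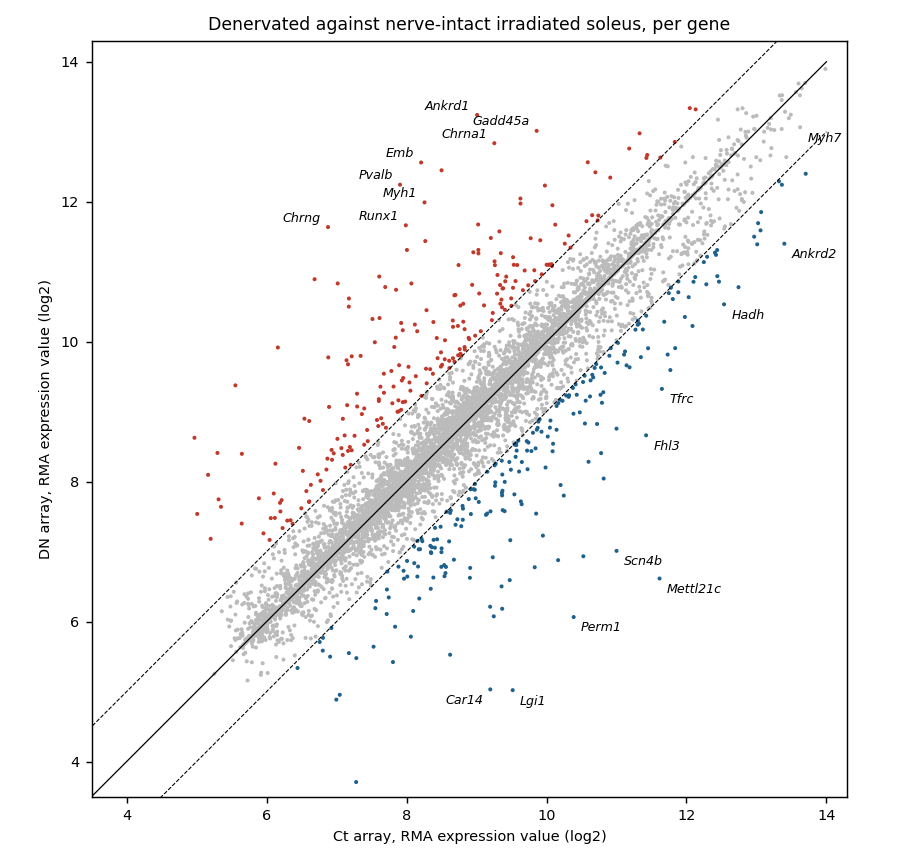
Every compared gene, with its log2 value on the Ct array on the horizontal axis and on the DN array on the vertical axis. Each point is 1 gene, the solid line marks equal values, the dashed lines mark 2-fold differences, and the 227 genes above them are red and the 227 below them blue. Chrng (6.88 in Ct, 11.64 in DN) lies farthest above the line and Mettl21c (11.62 in Ct, 6.62 in DN) farthest below it.

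Skeletal muscle fibres take many of their properties from their motor nerve. The nerve confines acetylcholine receptors to the endplate and keeps the fetal receptor subunit and the myogenic factors low, and its tonic firing in slow muscle sustains slow contractile proteins, mitochondria and fat oxidation. When the nerve is lost, the fibre makes receptors along its whole length, and histone deacetylases and myogenin take part in the known response. E-boxes, the sites that myogenic factors bind, are known features of receptor subunit promoters, and for this reason the promoters of the 5 subunits are shown here. Each runs from 250 bases before to 50 bases after the RefSeq start of the gene on the GRCr8 assembly and is written 5′ to 3′ on the gene's own strand, with E-boxes (CANNTG, which reads the same on both strands) in capitals. Chrna1 lies at chr3:78877304-78877603 (minus strand), Chrnb1 at chr10:55015058-55015357 (minus), Chrnd at chr9:95310066-95310365 (plus), Chrne at chr10:55834105-55834404 (minus) and Chrng at chr9:95325734-95326033 (plus).
Chrng: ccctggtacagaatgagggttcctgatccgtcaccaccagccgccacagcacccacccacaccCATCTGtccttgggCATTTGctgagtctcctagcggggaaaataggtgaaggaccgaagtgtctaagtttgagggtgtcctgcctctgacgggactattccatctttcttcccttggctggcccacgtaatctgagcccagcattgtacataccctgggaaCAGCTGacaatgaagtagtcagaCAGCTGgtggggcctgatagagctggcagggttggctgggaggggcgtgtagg
Chrna1: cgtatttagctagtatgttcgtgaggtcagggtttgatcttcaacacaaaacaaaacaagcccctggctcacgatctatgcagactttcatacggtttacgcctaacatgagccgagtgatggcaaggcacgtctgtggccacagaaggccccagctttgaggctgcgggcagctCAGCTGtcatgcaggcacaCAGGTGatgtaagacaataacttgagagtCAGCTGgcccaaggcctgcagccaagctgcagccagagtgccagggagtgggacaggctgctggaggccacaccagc
Chrnb1: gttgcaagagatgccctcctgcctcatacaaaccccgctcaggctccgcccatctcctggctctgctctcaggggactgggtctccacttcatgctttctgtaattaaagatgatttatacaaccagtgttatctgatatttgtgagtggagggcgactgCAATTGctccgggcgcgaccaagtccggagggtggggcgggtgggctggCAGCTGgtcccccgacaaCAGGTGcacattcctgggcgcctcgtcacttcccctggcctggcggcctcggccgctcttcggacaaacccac
Chrnd: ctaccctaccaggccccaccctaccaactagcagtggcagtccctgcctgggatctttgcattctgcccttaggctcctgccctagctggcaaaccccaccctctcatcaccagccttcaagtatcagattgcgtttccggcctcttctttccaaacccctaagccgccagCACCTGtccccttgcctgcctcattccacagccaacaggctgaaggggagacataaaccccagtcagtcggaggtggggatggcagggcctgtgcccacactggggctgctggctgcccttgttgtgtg
Chrne: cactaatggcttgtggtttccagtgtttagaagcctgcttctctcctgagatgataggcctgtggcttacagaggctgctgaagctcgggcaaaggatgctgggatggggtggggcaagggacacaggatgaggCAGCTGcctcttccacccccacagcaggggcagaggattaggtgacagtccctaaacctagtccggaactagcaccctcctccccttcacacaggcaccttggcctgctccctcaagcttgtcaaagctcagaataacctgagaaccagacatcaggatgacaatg

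Of the 10154 genes, 8422 had a promoter in the RefSeq table. The receptor promoters held 4 E-boxes in Chrng, 3 in Chrna1, 3 in Chrnb1, 1 in Chrnd and 1 in Chrne. Of the 5, 3 held at least 3, which 10.2% of all promoters did. At least 1 E-box was found in 5 of the 5, in 63.3% of all promoters of this length, in 68.6% of those of genes at least 2-fold higher (127 of 185) and in 74.6% of those of genes at least 2-fold lower (147 of 197). A match is a description of these letters and not a binding site, and it was found in a larger share of the promoters of lower genes than of higher ones.

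Denervated soleus carried more transcript of every acetylcholine receptor subunit. Chrng, the gamma subunit of the fetal receptor, read 6.88 in Ct, 11.64 in DN and 7.08 in TS, so DN lay 27.1-fold above Ct. Chrna1, the alpha subunit that binds acetylcholine, read 9.25 in Ct, 12.84 in DN and 7.94 in TS, or 12-fold above Ct. The beta subunit Chrnb1 read 9.30 in Ct, 10.95 in DN and 9.98 in TS, a 3.15-fold difference. In each of these the DN array stood highest of the 3. The delta subunit Chrnd read 9.58 in Ct, 11.09 in DN and 8.42 in TS, 2.86-fold above Ct. Chrne, the epsilon subunit that replaces gamma in adult muscle, read 6.87 in Ct, 8.33 in DN and 6.76 in TS, so it too was 2.75-fold above Ct. All 5 subunits therefore passed the 1.5-fold limit on the higher side, as did 4.93% of all genes. Their median difference from Ct was 1.65 in DN and -0.11 in TS. In these bulk pools a higher level per fibre and more fibres of a kind cannot be told apart, nor can less RNA per cell and fewer cells.

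The genes that build and hold the endplate did not differ as a block. Of 19 compared, 4 were at least 1.5-fold higher, 2 lower and 7 equal, with a median of 0.00. The higher ones were receptors and a matrix chain. Musk, the kinase that organizes receptor clusters, read 7.22 in Ct, 9.79 in DN and 8.27 in TS, a 5.96-fold difference. Lrp4, which binds agrin and activates MuSK, read 7.09 in Ct, 8.90 in DN and 7.76 in TS. Erbb2, the neuregulin co-receptor, read 7.34 in Ct, 9.80 in DN and 8.11 in TS, 5.47-fold above Ct, and the laminin chain Lama5 read 7.44 in Ct, 8.32 in DN and 7.84 in TS. By contrast, the scaffold Rapsn (7.83 and 8.14 in Ct and DN), the MuSK adaptor Dok7 (7.91 and 8.07) and agrin, Agrn (7.92 and 7.76), lay within 1.5-fold. Both lower members belong to the enzyme that ends transmission. Acetylcholinesterase, Ache, read 8.17 in Ct, 7.03 in DN and 8.87 in TS, 2.21-fold below Ct, and Colq, the collagen tail that anchors it at the synapse, read 8.21 in Ct, 7.18 in DN and 8.20 in TS, 2.05-fold below. Nrg1, a neuregulin through which the nerve signals, was listed but read 4.98 on all 3 arrays, under the filter.

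Genes of membrane excitability differed in both directions. Of 44 sodium, potassium, chloride and calcium channel genes listed, 33 were named by 1 symbol on the array and 30 were compared, of which 4 were at least 1.5-fold higher and 7 lower, with a median of -0.02. The sodium channel beta subunit Scn4b read 11.00 in Ct, 7.01 in DN and 10.50 in TS, 15.9-fold below Ct. The pore-forming sodium channel of adult muscle, Scn4a, read 8.97 in Ct, 8.99 in DN and 9.39 in TS and so differed by only 0.02. Resting and repolarizing conductances were among the lower genes. Clcn1, the chloride channel that stabilizes the resting membrane, read 8.50 in Ct, 6.78 in DN and 8.87 in TS, the inward rectifier Kcnj2 read 10.47 in Ct, 8.99 in DN and 10.12 in TS, and the voltage-gated potassium channels Kcna7 and Kcna5 differed by -1.75 and -1.37. Other potassium channel genes were higher. Kcnn3, the small-conductance calcium-activated channel that is known to appear in denervated muscle, read 9.03 in Ct, 11.26 in DN and 9.65 in TS, 4.71-fold above Ct, and the M-type channel Kcnq5 read 8.12 in Ct, 10.24 in DN and 9.34 in TS, 4.36-fold above. Kcnab1, a beta subunit, differed by 0.76. Cacnb1, the beta subunit of the muscle calcium channel, read 10.26 in Ct, 11.40 in DN and 10.95 in TS.

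**Figure D2:**
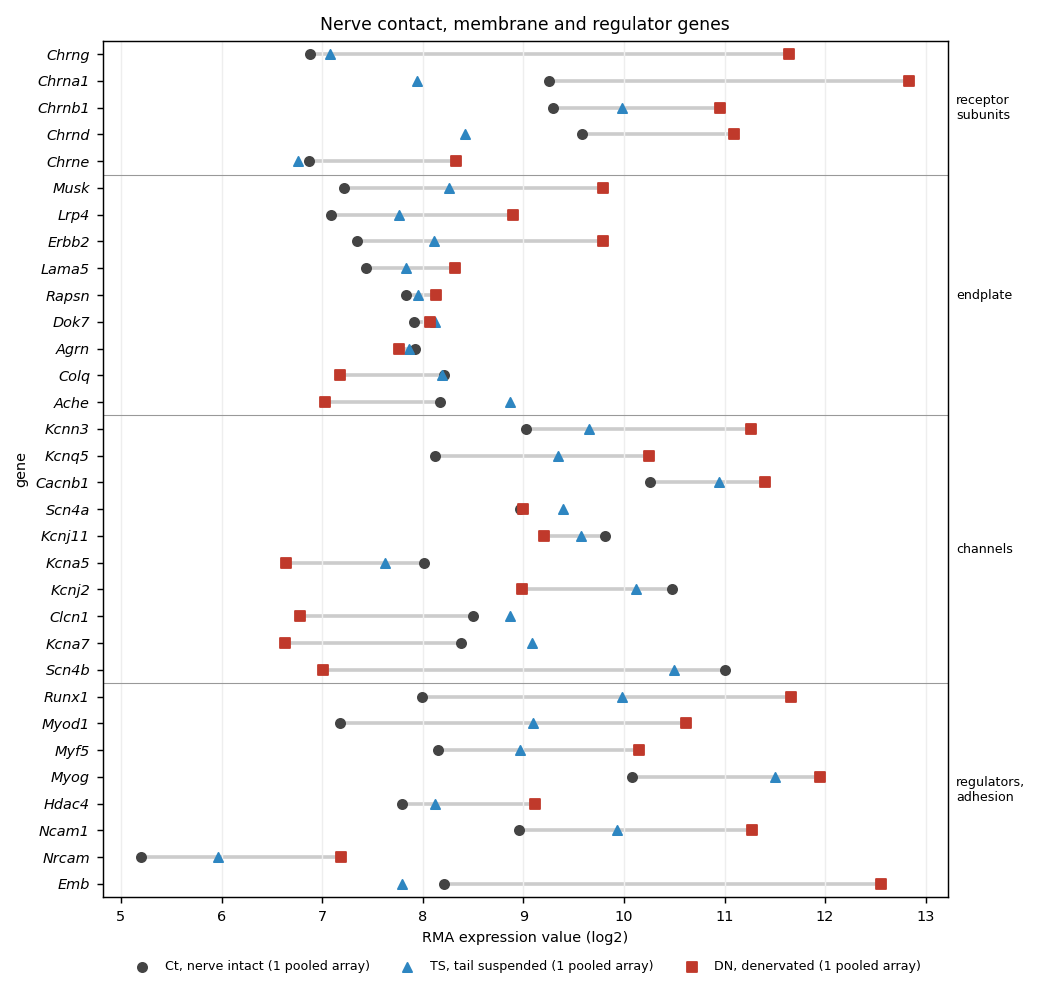
Expression values in log2 units (horizontal axis) of the 5 receptor subunits and of selected endplate, channel, regulator and adhesion genes (vertical axis). Each marker is 1 pooled array (dark grey circle Ct, blue triangle TS, red square DN), and a grey bar joins Ct and DN. The red square lies right of both other markers for every receptor subunit, and far to the left for Scn4b (7.01 in DN against 11.00 in Ct).

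Among the transcriptional regulators of the response to nerve loss, 8 of 24 compared were at least 1.5-fold higher and 3 lower, with a median of 0.18 in DN and 0.21 in TS. Runx1, a factor known to protect denervated fibres, read 7.99 in Ct, 11.66 in DN and 9.98 in TS, 12.8-fold above Ct. The myogenic factor Myod1 read 7.18 in Ct, 10.62 in DN and 9.09 in TS, 10.9-fold above. Myog, or myogenin, read 10.08 in Ct, 11.95 in DN and 11.50 in TS, and Myf5, which marks muscle precursors, read 8.15 in Ct, 10.15 in DN and 8.97 in TS. In all 4 genes TS lay between Ct and DN. Hdac4, the deacetylase that carries the denervation signal to the nucleus, read 7.80 in Ct, 9.12 in DN and 8.12 in TS, 2.5-fold above Ct. Sox6 (0.68), Camk2b (0.61) and Id2 (0.60) made up the rest of the higher members, whereas Id1 (1.99-fold), Tead1 (-0.89) and Prox1 (-0.72) were lower. Sox6 is known to repress slow-fibre genes and Prox1 to sustain the slow programme. Sox6, Prox1, Camk2b, Id2 and Tead1 were named after their values were seen. Dach2, which links Hdac4 to myogenin, was not analysed here. Satellite cell markers stood beside these factors as follows. Of 10 compared, 3 (Myf5, Met and Itga7) were at least 1.5-fold higher and 0 lower, the sum of their log2 levels was 88.3 in Ct and 90.8 in DN, and Pax7 was not analysed here. Their part in the result was not tested.

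Genes of fibre adhesion and of nerve guidance held some of the widest differences, although 11 of the 32 compared were equal and their median was 0.00. At least 1.5-fold higher were 3 of the 32 and lower 2, beside 4.93% and 5.53% of all genes. Emb, or embigin, a cell adhesion protein of the immunoglobulin family that also escorts lactate transporters, read 8.21 in Ct, 12.56 in DN and 7.79 in TS, 20.4-fold above Ct. Ncam1, the neural cell adhesion molecule that spreads over denervated fibres, read 8.95 in Ct, 11.28 in DN and 9.93 in TS, 5-fold above. Its relative Nrcam read 5.20 in Ct, 7.18 in DN and 5.96 in TS, and since it was dim in Ct it passed the filter only through the other arrays. The lower members were Lgi1, a secreted ligand known from neurons, at 9.52 in Ct, 5.02 in DN and 7.44 in TS, and Lynx1, a membrane-anchored modulator of acetylcholine receptors, at 9.37 in Ct, 6.18 in DN and 8.48 in TS. Lynx1 was thus 9.08-fold lower on the array on which the receptor subunits were highest. The sialyltransferase St8sia2, which adds polysialic acid to Ncam1, differed by 0.33.

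Of 23 neurotrophic factor and receptor genes, 4 were at least 1.5-fold higher and 2 lower. Fgf7, a growth factor made by stromal cells, read 9.03 in Ct, 11.31 in DN and 9.10 in TS, 4.87-fold above Ct. Gdnf, a survival factor for motor neurons made by muscle, read 6.32 in Ct, 7.22 in DN and 6.23 in TS, and its relative Artn read 6.13 in Ct, 7.12 in DN and 6.31 in TS. Cntfr, the receptor chain for ciliary neurotrophic factor, differed by 0.84. On the lower side were Vegfa (-0.97), the chief angiogenic factor, and Ret (-0.84), the kinase through which Gdnf signals. Markers of Schwann cells and nerve were at a median of 0.00, with 2 of 11 (Cnp at 0.79 and Egr2 at 0.59) at least 1.5-fold higher and none lower, a summed log2 level of 81.8 in Ct and 83.2 in DN, and the neurofilament genes Nefl, Nefm and Nefh under the filter. Their part in these values was not tested.

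Of the contractile genes, several fast ones were higher and several slow ones lower in denervated soleus, with exceptions on both sides. On the fast-fibre list, 9 of 20 passed the 1.5-fold limit upwards and 3 downwards, and the median difference was 0.47 in DN and 1.03 in TS. Pvalb, the calcium buffer of the fastest fibres, read 7.91 in Ct, 12.24 in DN and 8.35 in TS, so it stood 20.2-fold above Ct in DN while TS lay near Ct. Myh1, the IIX myosin, read 8.26 in Ct, 11.99 in DN and 12.19 in TS, nearly level in DN and TS. Myh4, the IIB myosin, read 6.46 in Ct, 8.48 in DN and 12.19 in TS, so DN lay 4.05-fold above Ct and TS far above both. Myh2, the IIA myosin, differed least, at 11.68 in Ct, 12.04 in DN and 12.52 in TS. These myosins are close relatives and their probes may share signal. The regulatory light chain Myl11 read 11.33 in Ct, 12.98 in DN and 12.84 in TS, and the fast troponins Tnnc2 and Tnni2 differed by 1.58 and 1.36. Of the 20, 6 were below Ct in DN. Past the limit downwards was Mylk2, the kinase of fast regulatory light chains, at 10.79 in Ct, 9.13 in DN and 11.25 in TS. So were the Z-disc protein Myoz1 at 9.44 in Ct, 8.44 in DN and 10.75 in TS, and the muscle enolase Eno3 (-0.77). Mylk2 and Myoz1 were below Ct in DN and above Ct in TS. The same held, within 1.5-fold in DN, for the fast calcium pump Atp2a1, at 12.09 in Ct, 11.67 in DN and 13.13 in TS.

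On the slow-fibre list, 9 of 21 passed the same limit downwards and 1 upwards. The median difference was -0.47 in DN and -0.23 in TS. Among the lower members was the essential light chain Myl3, at 13.70 in Ct, 12.40 in DN and 13.19 in TS. The regulatory light chain Myl2 read 12.44 in Ct, 11.31 in DN and 11.50 in TS. Myh7b, a slow myosin that is also a host of muscle microRNA, read 9.26 in Ct, 7.94 in DN and 7.58 in TS. Ankrd2, a titin-associated sensor of stretch, read 13.40 in Ct, 11.40 in DN and 13.49 in TS, with DN 4-fold below Ct while TS lay next to Ct. Casq2, the slow calsequestrin, differed by -1.08 and the slow calcium pump Atp2a2 by -0.79. The slow pump and the fast pump Atp2a1 were thus both below Ct in DN. The main slow myosin, Myh7, lay only 1.47-fold below Ct, and Myh6 and Myoz2 differed by -0.47 and -0.59. Myoglobin, Mb, which stores oxygen in slow fibres, read 13.36 in Ct, 13.45 in DN and 13.03 in TS and did not follow the rest. Sln, or sarcolipin, which uncouples the slow calcium pump, was the higher member, at 12.13 in Ct, 13.32 in DN and 12.71 in TS. Several of these genes read near the top of the scale, 13.99 in Ct, where array signals can be compressed. The muscle fibre markers, a list made up largely of slow-fibre genes, had a median of -0.41. Past the limit downwards were 5 of 12, with a summed log2 level of 157.5 in Ct and 150.8 in DN, and several of these are slow-fibre genes. Their part in the result was not tested.

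Several developmental muscle genes were higher and none was past the limit downwards. The 1.5-fold limit was passed upwards by 8 of 16 compared. Their median difference was 0.64 in DN and 0.57 in TS. Ankrd1, a stretch-responsive titin partner and a relative of Ankrd2, read 9.01 in Ct, 13.24 in DN and 12.36 in TS, so it was 18.8-fold higher where Ankrd2 was lower. Tnnt2, the troponin T of heart and embryonic muscle, read 8.01 in Ct, 11.31 in DN and 8.45 in TS. Embryonic myosin, Myh3, read 9.98 in Ct, 12.23 in DN and 12.41 in TS. Tnnt2 thus stood high in DN alone and Myh3 in both DN and TS. Tubb6, a tubulin of regenerating fibres, read 9.77 in Ct, 11.48 in DN and 11.71 in TS, and Mymk, or myomaker, which fuses myoblasts, read 6.57 in Ct, 7.86 in DN and 7.11 in TS. The imprinted RNA H19, which was on no list and was named after its value was seen, read 12.05 in Ct, 13.34 in DN and 12.61 in TS.

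**Figure D3:**
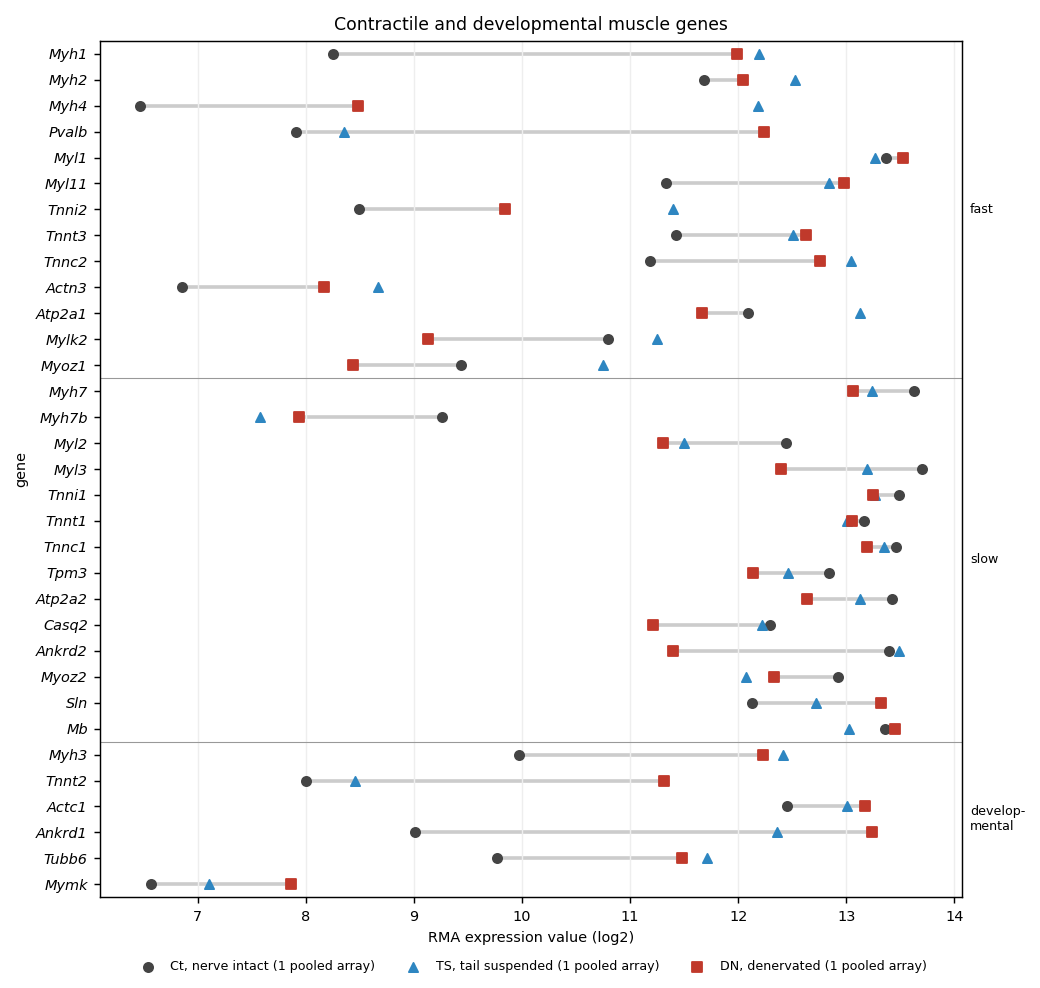
Expression values in log2 units (horizontal axis) of fast, slow and developmental muscle genes (vertical axis). Each marker is 1 pooled array (dark grey circle Ct, blue triangle TS, red square DN), and a grey bar joins Ct and DN. Pvalb and Tnnt2 are high in DN alone (12.24 and 11.31), Myh1 is high in both DN and TS (11.99 and 12.19), and Myh4 is higher in TS (12.19) than in DN (8.48).

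Genes of calcium handling were divided. Of 27 compared, 3 were at least 1.5-fold higher (Pvalb, Sln and the calcineurin subunit Ppp3ca at 0.62) and 6 were lower, and the median (-0.04) and the mean (0.04) had opposite signs. The junctional protein Jph2, which holds the calcium store against the surface membrane, read 10.49 in Ct, 9.59 in DN and 10.52 in TS, and the calcium sensor S100a1 read 8.82 in Ct, 7.95 in DN and 8.76 in TS. Rcan1, a feedback inhibitor of calcineurin, differed by -0.72, and the release channel Ryr3 by -0.59.

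At the surface membrane, 5 of 22 genes of the dystrophin complex and costamere were at least 1.5-fold higher and 3 lower, with a median of 0.00. Dystrophin, Dmd, read 9.74 in Ct, 10.81 in DN and 10.11 in TS, and its partner Sntb1, a syntrophin, read 7.29 in Ct, 9.26 in DN and 7.65 in TS, 3.9-fold above Ct. Cavin4, a caveolar coat protein, read 9.56 in Ct, 10.87 in DN and 10.12 in TS, whereas Cav3, the muscle caveolin itself, read 9.54 in Ct, 7.82 in DN and 9.99 in TS. Both proteins shape caveolae, and they differed in opposite directions. Itgb1bp2, or melusin, an integrin-binding sensor of load, read 10.17 in Ct, 6.88 in DN and 9.25 in TS, 9.77-fold below Ct. Popdc3 (1.03) and the laminin receptor Itga7 (0.64) were also higher, and the sarcoglycan Sgcd (-0.78) was lower.

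Z-disc and M-band genes also went both ways, 6 of 30 past 1.5-fold upwards and 7 downwards. The median was -0.11 and the mean was 0.02, on opposite sides of 0. Fhl3, a LIM protein that interacts with MyoD, read 11.42 in Ct, 8.66 in DN and 11.45 in TS, 6.78-fold below Ct in DN and level with Ct in TS. Ldb3, a core Z-disc protein, read 12.09 in Ct, 10.22 in DN and 11.60 in TS. Tmod1, which caps the pointed ends of thin filaments, read 9.33 in Ct, 11.58 in DN and 11.12 in TS, and the myosin-binding Mybph read 9.26 in Ct, 11.09 in DN and 11.92 in TS, both higher in DN and in TS. Myot, or myotilin, differed by -1.03.

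Genes for the mitochondrial respiratory chain were lower across all its complexes, and none of their 71 compared members was 1.5-fold higher. In total 51 passed the limit downwards, around a median of -0.79 in DN and -0.43 in TS. Of 32 complex I subunits, 24 were lower and the median was -0.85. Ndufs3, a subunit of the arm that transfers electrons, read 11.98 in Ct, 10.35 in DN and 11.13 in TS, 3.08-fold below Ct, Ndufb7 read 10.78 in Ct, 9.63 in DN and 10.43 in TS and Ndufb8 read 10.90 in Ct, 9.80 in DN and 10.47 in TS. In each of them TS lay between the other 2 pools. Complex II, succinate dehydrogenase, had all 4 subunits lower, from Sdhc (-1.18) and Sdhd (-0.93) in the membrane to Sdha (-0.69) and Sdhb (-0.68), with a median of -0.81. In complex III, 6 of 7 were lower, the median was -0.80, and Uqcrq read 11.11 in Ct, 9.82 in DN and 10.27 in TS. Complex IV with cytochrome c had 8 of 13 lower and a median of -0.74. Its muscle isoform Cox8b read 11.14 in Ct, 9.66 in DN and 9.99 in TS, 2.79-fold below Ct, whereas Cox4i2, dim on every array, was level, at 5.81 in Ct, 5.79 in DN and 5.81 in TS. Complex V, the ATP synthase, had 9 of 15 lower and a median of -0.69, with the membrane ring subunits Atp5mc1 at 10.81 in Ct, 9.28 in DN and 9.76 in TS and Atp5mc3 at 12.10 in Ct, 10.86 in DN and 11.49 in TS.

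Factors that assemble the chain or translate its mitochondrial part were lower to a smaller extent. Of 25 assembly factors, 5 were past the limit downwards and none upwards, with a median of -0.30. Atpaf1, which assembles the F1 part of ATP synthase, read 9.24 in Ct, 8.30 in DN and 8.95 in TS, Ndufaf1 of complex I assembly read 9.55 in Ct, 8.79 in DN and 9.20 in TS and Bcs1l of complex III read 8.80 in Ct, 8.07 in DN and 8.76 in TS. Of 69 genes on the mitochondrial ribosome list, 10 were lower and none higher, with a median of -0.16. The lowest, Kgd4 (9.61 in Ct, 8.14 in DN and 8.65 in TS), was listed under its older name as a ribosomal protein but is a subunit of the oxoglutarate dehydrogenase complex, and the next was Mrpl14 (-0.88). Import and inner membrane genes had 9 of 40 lower, 1 higher (Tomm5, 0.80) and a median of -0.26. Among the lower were Chchd10 of the crista junctions at 11.27 in Ct, 10.17 in DN and 10.65 in TS and the outer membrane channel Vdac1 at 12.75 in Ct, 11.87 in DN and 12.30 in TS. Genes of fission, fusion, turnover and mitochondrial DNA were lower in 6 of 30 cases and higher in none, around a median of -0.09. Mtfp1, which promotes fission, read 8.01 in Ct, 6.87 in DN and 7.18 in TS, and the protease subunit Clpx differed by -0.88.

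Coenzyme Q carries electrons from complexes I and II to complex III, and 6 of 12 genes of its synthesis were lower and none higher, with a median of -0.49. Coq8a, a kinase-like protein of the synthesis complex, read 12.74 in Ct, 10.78 in DN and 12.26 in TS, 3.9-fold below Ct. Coq10a read 10.38 in Ct, 8.97 in DN and 9.72 in TS and Coq9 read 10.67 in Ct, 9.49 in DN and 10.37 in TS, while Coq2 and Coq4 were equal on Ct and DN.

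Fuel entry into the mitochondria was lower at several steps. Of 31 genes of pyruvate entry and the citric acid cycle, 16 were at least 1.5-fold lower and 1 higher, with a median of -0.63 in DN and -0.32 in TS. The pyruvate carrier subunit Mpc1 read 10.72 in Ct, 8.82 in DN and 9.64 in TS. Its partner Mpc2 read 10.56 in Ct, 9.16 in DN and 9.76 in TS. Pdp2, the phosphatase that activates pyruvate dehydrogenase, read 8.61 in Ct, 7.15 in DN and 7.94 in TS. Mdh1, the cytosolic malate dehydrogenase of the NADH shuttle, read 12.97 in Ct, 11.50 in DN and 12.27 in TS, and Idh2 read 13.02 in Ct, 11.69 in DN and 12.24 in TS. The higher member was Me2, the malic enzyme that makes pyruvate inside mitochondria, at 7.81 in Ct, 9.36 in DN and 8.48 in TS, 2.92-fold above Ct.

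Fat oxidation was the other pathway with a wide lower block, 25 of 40 genes, with a median of -0.76 in DN and -0.69 in TS. Fabp3, the fatty acid carrier of slow fibres, read 13.01 in Ct, 11.39 in DN and 10.92 in TS, 3.07-fold below Ct. Hadh, the third enzyme of beta-oxidation, read 12.54 in Ct, 10.53 in DN and 11.32 in TS, 4.01-fold below. Etfb, which passes its electrons to the chain, read 11.35 in Ct, 9.78 in DN and 10.41 in TS, and the carnitine transferase Cpt2 read 11.19 in Ct, 9.63 in DN and 9.60 in TS. All 3 higher members are known targets of fatty acid receptors. Angptl4, an inhibitor of lipoprotein lipase, read 5.35 in Ct, 7.64 in DN and 6.92 in TS and was below the filter value in Ct. Ucp3, the muscle uncoupling protein, read 9.26 in Ct, 11.15 in DN and 9.44 in TS, 3.71-fold above Ct, and Plin2, a lipid droplet coat, read 10.13 in Ct, 11.67 in DN and 9.92 in TS. Ucp3 and Plin2 stood high in DN alone. Adipocyte markers stood beside these genes with 5 of 10 at least 1.5-fold higher and none lower, a median of 0.87 and a summed log2 level of 77.7 in Ct and 87.2 in DN. Adipoq, the defining fat hormone, read 7.82 in Ct, 9.92 in DN and 9.45 in TS and Scd, a desaturase, read 7.95 in Ct, 10.16 in DN and 8.69 in TS, but Fabp4 and Lipe were level in Ct and DN (-0.02 and 0.00), Pnpla3 was below the filter, and Plin4 and Cidea were not analysed here. Their part in the higher lipid genes was not tested.

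Of 22 genes of ketone body and branched-chain amino acid breakdown, 11 were lower and none higher, with a median of -0.62. Bdh1, which oxidizes the ketone body hydroxybutyrate, read 9.23 in Ct, 6.92 in DN and 7.30 in TS, 4.97-fold below Ct. Acat1, the thiolase of the same pathway, read 12.13 in Ct, 10.92 in DN and 11.45 in TS. Among the enzymes for leucine and its relatives, Ivd (-0.99), Mccc2 (-0.96) and Dbt (-0.89) were lower.

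Regulators of this oxidative programme were among the lower groups, at a median of -0.43. Of 25 compared, 11 passed the limit downwards and 2 upwards. The TS median was 0.00. Perm1, a muscle regulator that acts with PGC-1 and ERR factors, read 10.39 in Ct, 6.06 in DN and 8.19 in TS, 20-fold below Ct. Ppara, the fatty acid receptor, read 8.11 in Ct, 6.83 in DN and 7.52 in TS, its partner Rxrg read 8.78 in Ct, 7.36 in DN and 8.33 in TS, and Fndc5, the irisin precursor, read 10.62 in Ct, 9.22 in DN and 10.34 in TS. Sirt3, the mitochondrial deacetylase, differed by -1.13. Ppargc1a itself, which encodes PGC-1alpha, read 7.51 in Ct, 6.96 in DN and 7.38 in TS and lay 1.47-fold below Ct, short of the 1.5-fold limit. Esrra (-0.90) and Esrrg (-0.76), which encode ERR factors and were named after their values were seen, were lower. The 2 higher members were regulatory subunits of AMP-activated kinase, Prkag3 at 7.55 in Ct, 9.99 in DN and 8.96 in TS and Prkab2 at 8.03 in Ct, 9.64 in DN and 8.30 in TS, 5.45-fold and 3.06-fold above Ct.

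ERR factors bind a known element, searched here as TNAAGGTCA on both strands, whose last letters can overlap the first of an E-box. It was found in 46 of the 8422 promoters (0.546%), in 3 of 63 promoters of respiratory chain genes (4.76%; Atp5mc3, Ndufb4 and Sdhd), in 3 of 197 promoters of genes at least 2-fold lower (1.52%; Atp5mc3, Myh7b and Rilp) and in 0 of 185 of genes at least 2-fold higher. With so few matches these shares are a description only. The promoter of Atp5mc3, an ATP synthase gene, is shown from RefSeq on GRCr8 at chr3:79220615-79220914 (minus strand), with the element, which lies on the opposite strand, in capitals.
Atp5mc3: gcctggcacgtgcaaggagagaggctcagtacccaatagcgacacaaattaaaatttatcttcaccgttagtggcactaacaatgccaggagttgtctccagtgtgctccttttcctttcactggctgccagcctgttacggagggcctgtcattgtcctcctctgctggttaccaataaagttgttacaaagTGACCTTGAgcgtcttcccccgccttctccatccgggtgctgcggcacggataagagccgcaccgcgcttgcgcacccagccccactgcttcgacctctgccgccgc

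Glycolytic genes were lower to a smaller extent, 10 of 37 past the limit and none higher, with a median of -0.30 in DN and 0.04 in TS. Pfkfb1, which makes the activator of phosphofructokinase, read 9.19 in Ct, 6.21 in DN and 9.05 in TS, 7.9-fold below Ct. The insulin-dependent glucose transporter Slc2a4 read 11.73 in Ct, 9.82 in DN and 11.42 in TS, and Ldhb, the lactate dehydrogenase subunit of oxidative fibres, read 12.44 in Ct, 10.94 in DN and 11.49 in TS. In the first pair TS stood next to Ct. Glycogen synthase Gys1 and the transporter Slc2a12 differed by -0.98 and -0.95. Creatine and purine enzymes were mostly within 1.5-fold, with 10 of 22 equal, muscle creatine kinase Ckm at 13.36 in Ct, 12.24 in DN and 13.30 in TS, the creatine-synthesizing Gamt 2-fold below Ct and the AMP deaminase Ampd3 higher at 10.08 in Ct, 11.08 in DN and 10.50 in TS.

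Transport of lactate, protons, bicarbonate and water was among the lower groups, 8 of 19 genes lower and 2 higher, with a median of -0.20. The monocarboxylate transporter Slc16a3, which exports lactate, read 8.91 in Ct, 6.77 in DN and 9.05 in TS, Slc16a7 read 7.96 in Ct, 6.61 in DN and 7.37 in TS and Slc16a1 read 11.01 in Ct, 9.70 in DN and 10.32 in TS. Their chaperones were the higher members, Emb as given above and Bsg, or basigin, at 11.55 in Ct, 12.18 in DN and 11.58 in TS. Car14, a membrane carbonic anhydrase, read 9.20 in Ct, 5.03 in DN and 8.50 in TS, and its DN value lay under the filter value. Aqp4, the water channel of fast fibres, read 7.53 in Ct, 5.64 in DN and 8.90 in TS, lower in DN and higher in TS, while Aqp7, which carries glycerol, read 11.00 in Ct, 8.76 in DN and 8.69 in TS, lower in both. Of 24 genes of iron, haem and oxygen handling, 2 were higher and 3 lower, beside 4.93% and 5.53% of all genes. The transferrin receptor Tfrc, by which cells take up iron, read 11.65 in Ct, 9.32 in DN and 10.85 in TS, 5.01-fold below Ct, and the iron exporter Slc40a1 read 8.90 in Ct, 10.04 in DN and 9.25 in TS. Ceruloplasmin, Cp, which oxidizes exported iron, read 9.41 in Ct, 10.86 in DN and 10.55 in TS. Alas1, the first enzyme of haem synthesis, read 11.38 in Ct, 10.17 in DN and 10.52 in TS, and the oxygen sensor Egln3 differed by -0.59. The importer and the exporter thus differed in opposite directions.

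**Figure D4:**
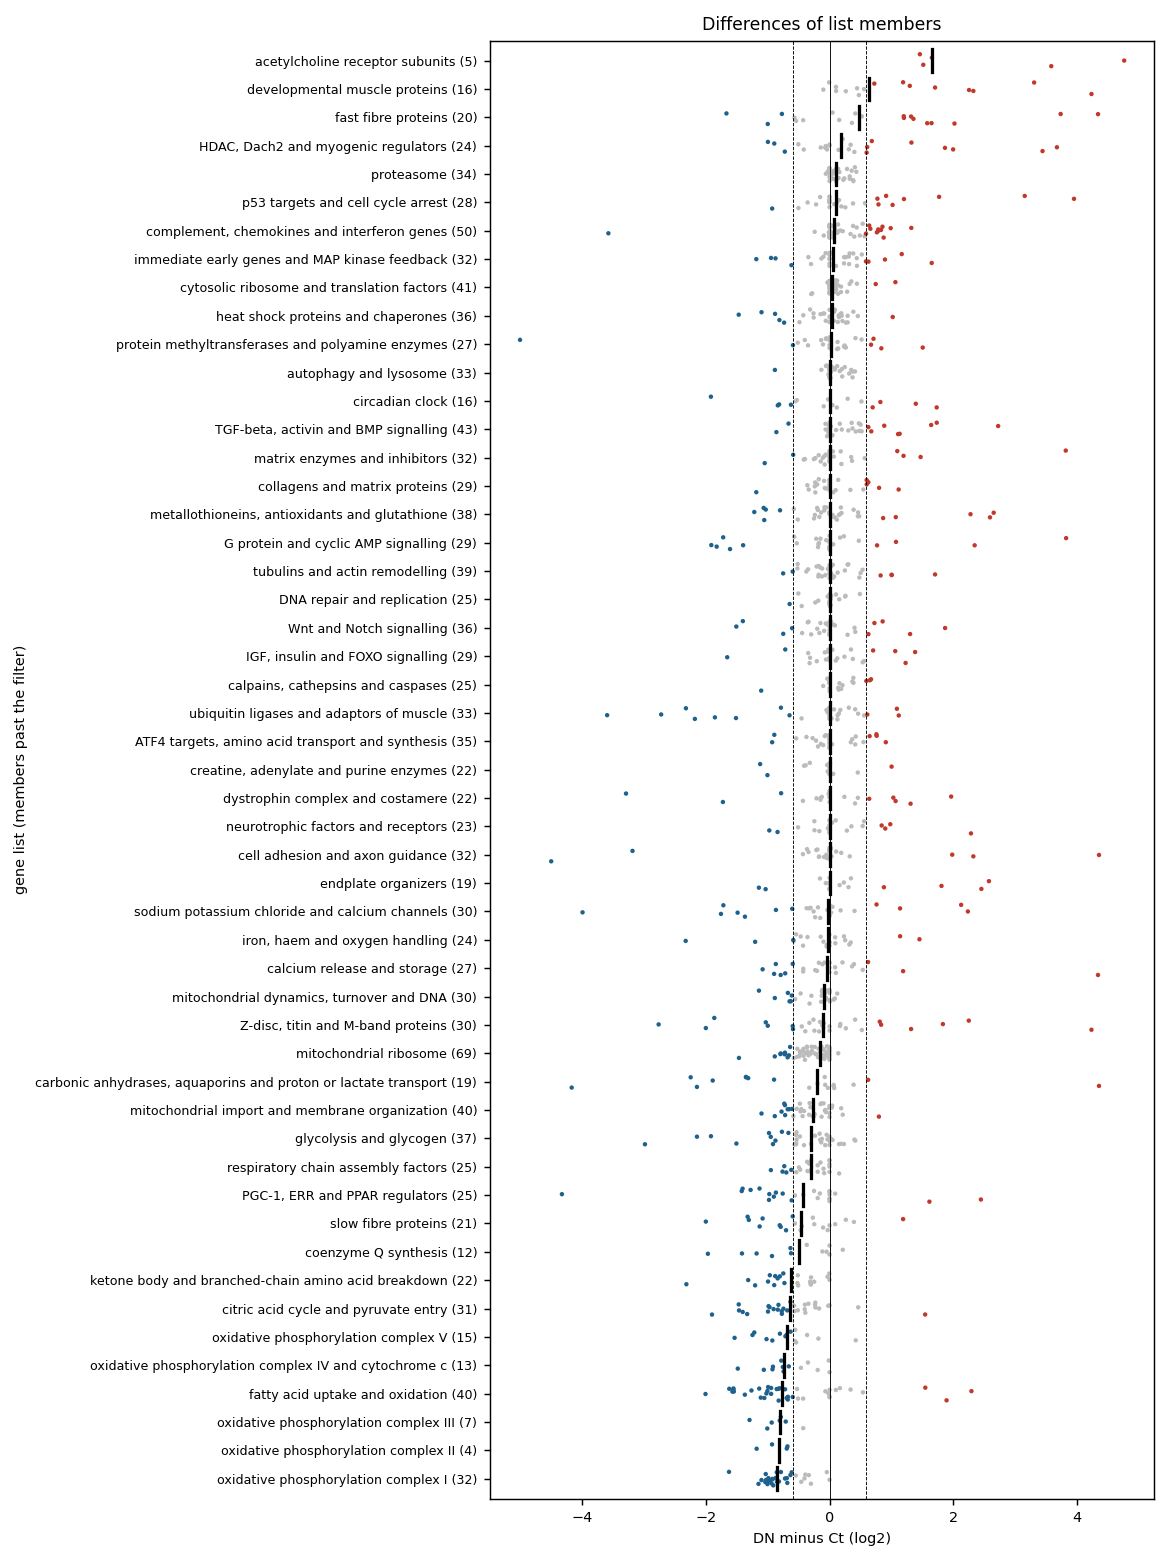
DN minus Ct in log2 units (horizontal axis) for the compared members of 51 gene lists (vertical axis, number compared in brackets), ordered by their medians. Each point is 1 gene, shifted up or down at random for legibility, red at or above and blue at or below the 1.5-fold limits (dashed), and black bars are medians. The receptor subunits have the highest median (1.65) and complex I the lowest (-0.85).

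Among muscle ubiquitin ligases and their adaptors, a few had wide differences. Past 1.5-fold, 3 of 33 were higher and 8 lower, and the median was 0.00. The lower ones were adaptors of cullin ligases for the most part. Asb18 read 10.53 in Ct, 6.93 in DN and 7.57 in TS, 12.1-fold below Ct, and Asb2, which targets filamins, read 11.77 in Ct, 9.59 in DN and 10.34 in TS. Both were lower in TS as well. Klhl38 read 9.95 in Ct, 7.23 in DN and 9.95 in TS and Asb11 read 9.48 in Ct, 7.16 in DN and 10.48 in TS, so these were lower in DN alone. Asb10 and Asb4 differed by -1.85 and -1.51. The atrophy ligase Fbxo32 read 10.77 in Ct, 10.90 in DN and 11.42 in TS. The other, Trim63, read 11.02 in Ct, 11.33 in DN and 11.57 in TS, so both were within 1.5-fold of Ct in DN. The higher members were the F-box genes Fbxo31 (1.12) and Fbxo30 (1.09), the latter of which marks BMP-controlled atrophy, and Nedd4 (0.61), which was named after its value was seen.

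The proteases of the cytosol and lysosome differed little. Among calpains, cathepsins and caspases, 3 of 25 were higher, namely the cathepsin Ctsl (0.67), Casp12 (0.65) and Capn6 (0.59), and the muscle calpain Capn3 was lower, at 10.32 in Ct, 9.21 in DN and 9.96 in TS. None of 34 proteasome subunits reached 1.5-fold, with a median of 0.10, and the largest difference was that of Psmd14 (0.43). Of 33 autophagy and lysosome genes only Wipi1 (-0.88) passed the limit, with a median of 0.01. Of 41 ribosomal and translation genes, 2 were higher and none lower, beside 4.93% and 5.53% of all genes, with a median of 0.05. The 2 were Rpl3 (10.04 in Ct, 11.10 in DN and 10.48 in TS) and the elongation factor kinase Eef2k (0.75).

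Growth control of muscle runs through myostatin and activins on the one side and insulin-like growth factors on the other. Of 43 genes of the TGF-beta family, 8 were at least 1.5-fold higher and 2 lower, with a median of 0.00. Follistatin, Fst, which traps myostatin and activin, read 7.61 in Ct, 10.34 in DN and 8.70 in TS, 6.6-fold above Ct, and its relative Fstl3 read 7.45 in Ct, 8.58 in DN and 8.17 in TS. Inhba, which encodes the subunit of activin A, was lower, at 6.88 in Ct, 6.02 in DN and 6.13 in TS. Mstn, or myostatin, was the other lower member, at 7.27 in Ct, 6.61 in DN and 6.38 in TS. Fst and Fstl3 were thus higher, and Inhba and Mstn lower, than Ct in both DN and TS. Inhba and Mstn were named after their values were seen. Tgfb2 read 8.81 in Ct, 10.54 in DN and 9.84 in TS, and Ltbp1, which stores latent TGF-beta in the matrix, read 8.66 in Ct, 10.30 in DN and 9.12 in TS. Gdf6, a BMP ligand, read 6.61 in Ct, 7.72 in DN and 6.62 in TS, and Gdf5 was not analysed here.

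On the insulin-like growth factor list, 4 of 29 were higher and 2 lower, beside 4.93% and 5.53% of all genes. Grb14, an inhibitor of the insulin receptor, read 10.09 in Ct, 8.43 in DN and 10.04 in TS, 3.14-fold below Ct. The regulatory subunit of phosphoinositide 3-kinase, Pik3r1, read 9.38 in Ct, 10.76 in DN and 9.94 in TS, and the kinase Akt2 read 10.74 in Ct, 11.80 in DN and 11.07 in TS. Igfbp5, a binding protein abundant in muscle, read 11.44 in Ct, 12.67 in DN and 12.27 in TS, and Irs1, the adaptor of the insulin receptor, differed by -0.72. Wnt and Notch genes had 5 higher and 4 lower of 36, with the secreted Wnt inhibitors Sfrp2 at 7.68 in Ct, 9.54 in DN and 7.95 in TS and Sfrp1 at 0.86, the ligand Wnt9a at 7.44 in Ct, 8.74 in DN and 7.64 in TS, and Fzd9 and Wnt16 lower at -1.51 and -1.40.

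Among G protein and cyclic AMP genes, 4 of 29 were higher and 5 lower. Ppp1r14c, a phosphatase inhibitor, read 5.55 in Ct, 9.38 in DN and 5.46 in TS, under the filter value in Ct and TS. The adenylate cyclase Adcy2 read 7.92 in Ct, 10.27 in DN and 9.09 in TS, 5.08-fold above Ct. The nuclear receptor Nr4a1, which responds to beta-adrenergic signals in muscle, read 10.55 in Ct, 8.83 in DN and 9.74 in TS. Its relative Nr4a2 read 7.84 in Ct, 5.93 in DN and 6.85 in TS, so both were lower. Ppp1r1a, another phosphatase inhibitor, read 9.40 in Ct, 7.58 in DN and 9.19 in TS, the peptide receptor partner Ramp1 read 9.15 in Ct, 7.54 in DN and 9.61 in TS, and Pkia, which inhibits protein kinase A, differed by -1.40.

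Cell cycle arrest and damage-response genes included several wide differences on an otherwise level list, 8 of 28 at least 1.5-fold higher and 1 lower, with a median of 0.10. Cdkn1a, the inhibitor p21, read 8.50 in Ct, 12.45 in DN and 10.71 in TS, 15.4-fold above Ct. Gadd45a, known as a target of Hdac4 signalling in denervated muscle, read 9.86 in Ct, 13.01 in DN and 11.21 in TS, 8.89-fold above, and Gadd45b read 7.89 in Ct, 9.66 in DN and 9.13 in TS. TS lay between Ct and DN for these. Phlda3, a p53 target that restrains Akt, read 9.34 in Ct, 10.54 in DN and 10.25 in TS, Rb1 differed by 1.02, and Sesn1 was the lower member (-0.93). All pools had been irradiated, so these values compare denervation on that background. Of 25 DNA repair and replication genes none was higher and Ccnb1 alone (-0.64) was lower.

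Immediate early genes had 5 of 32 higher and 4 lower. Junb, an AP-1 subunit, read 9.04 in Ct, 10.69 in DN and 9.62 in TS, 3.14-fold above Ct, and the growth factor feedback inhibitor Spry2 read 7.66 in Ct, 8.83 in DN and 7.59 in TS. The Krüppel-like factors Klf2 and Klf4 were lower (-1.18 and -0.95), as was the phosphatase Dusp1 (-0.87), while Egr1 read 9.60 in Ct, 10.49 in DN and 8.35 in TS. Of 16 clock genes, 4 were higher and 4 lower. Nfil3 read 9.63 in Ct, 7.72 in DN and 9.30 in TS, and Dbp, which competes with it for the same sites, read 9.29 in Ct, 10.69 in DN and 9.74 in TS, so the repressor and the activator differed in opposite directions. Bhlhe41, another repressor, read 7.63 in Ct, 9.36 in DN and 8.03 in TS, Bmal1 differed by -0.81 and Nr1d1, which represses Bmal1, by 0.82. The labels do not give the hour at which muscle was taken, and its part was not tested.

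Stress proteins were divided. Of 38 metallothionein, antioxidant and glutathione genes, 5 were higher and 5 lower. The metal-binding protein Mt1 read 9.02 in Ct, 11.67 in DN and 10.85 in TS. Its close copy Mt2A, whose probes may share signal with it, read 9.20 in Ct, 11.48 in DN and 11.31 in TS. The glutathione transferase Gstm2 read 7.14 in Ct, 9.73 in DN and 8.53 in TS, 6.03-fold above Ct, and the plasma peroxidase Gpx3 read 10.03 in Ct, 11.10 in DN and 10.74 in TS. By contrast, Gpx1, the peroxidase inside cells, read 13.07 in Ct, 11.85 in DN and 12.88 in TS, and the mitochondrial Txnrd2 read 8.96 in Ct, 7.89 in DN and 8.78 in TS. Of 36 heat shock genes and chaperones, 1 was past the limit upwards and 5 downwards, and the median (0.04) and the mean (-0.07) differed in sign. The small heat shock protein Hspb8, which works with Bag3 in the clearance of damaged filaments, read 11.83 in Ct, 12.85 in DN and 12.29 in TS, higher in DN. Its relative Hspb6 read 13.06 in Ct, 11.59 in DN and 12.16 in TS, and Hspb3 read 10.52 in Ct, 9.42 in DN and 9.63 in TS, both lower. Among amino acid and ATF4 genes, the leucine carrier Slc7a5 (0.91), Slc1a5 (0.76), Slc7a2 (0.65) and Sesn3 (0.76) were higher and Sesn1 and Slc38a1 (-0.89) lower, of 35 compared.

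Mettl21c, a lysine methyltransferase of muscle, had the lowest difference of all genes compared. It read 11.62 in Ct, 6.62 in DN and 9.36 in TS, 32-fold below Ct, with TS between them. On its list of 27 methyltransferase and polyamine genes, 4 were past the limit upwards and 2 downwards, and the median (0.02) and the mean (-0.04) differed in sign. Setd7 read 9.42 in Ct, 10.93 in DN and 9.91 in TS, the actin histidine methyltransferase Setd3 differed by 0.71, spermine synthase Sms by 0.84 and Sat1, which acetylates polyamines, by 0.67. Smyd1, a myosin-associated methyltransferase, differed by -0.59. On a cytoskeletal list of 39, 4 genes were past the limit upwards and 2 downwards (Stmn2 at -0.75 and Tagln at -0.60), around a median of 0.00. Of all genes, 4.93% were past it upwards and 5.53% downwards. The higher members of the list were all tubulins, Tubb6 given above, Tuba1a at 10.73 in Ct, 11.73 in DN and 10.94 in TS, Tuba1b at 11.63 in Ct, 12.63 in DN and 12.20 in TS and Tubb2a (0.82). Tubulin genes are close copies and their probes may share signal.

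Most matrix genes lay within 1.5-fold. Of 29 collagens and matrix proteins, 5 were higher and 1 lower around a median of 0.00, with Col11a1 at 8.29 in Ct, 9.40 in DN and 7.47 in TS, periostin, Postn, at 10.90 in Ct, 11.70 in DN and 11.70 in TS, and fibromodulin, Fmod, at 9.74 in Ct, 8.56 in DN and 8.99 in TS. Of 32 matrix enzymes and inhibitors, 4 were higher and 2 lower, around a median of 0.00. The lower counts are near the 5.53% of all genes, whereas the higher counts are larger shares than the 4.93% of all genes. The kallikrein Klk1, a protease that releases kinins, read 7.02 in Ct, 10.83 in DN and 7.17 in TS, 14.1-fold above Ct. Its relatives on the array may share its signal. The collagen cross-linking enzyme Lox read 8.55 in Ct, 10.02 in DN and 10.02 in TS, and Plod2, which prepares collagen for it, read 9.83 in Ct, 11.02 in DN and 10.52 in TS. The inhibitor Timp1 read 8.83 in Ct, 9.92 in DN and 10.39 in TS. The protease Adamts1 was lower (-1.05). Fibroblast markers stood beside these with none of 11 past 1.5-fold and a summed log2 level of 121.0 in Ct and 121.1 in DN. Among tendon markers 5 of 10 were past the limit downwards and 2 upwards, with a median of -0.58 and a summed log2 level of 92.1 in Ct and 87.6 in DN. Tnmd, the defining tendon gene, read 9.13 in Ct, 7.53 in DN and 7.92 in TS and Chad, a cartilage and tendon matrix protein, read 9.20 in Ct, 7.58 in DN and 7.85 in TS. The part of tendon in the matrix values was not tested.

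Complement, chemokine and interferon genes had 11 of 50 at least 1.5-fold higher and 1 lower, with a median of 0.07. The complement factor Cfd, which is also an adipocyte marker, read 8.44 in Ct, 9.76 in DN and 9.86 in TS, C1s read 9.11 in Ct, 9.96 in DN and 9.26 in TS, and the cytokine feedback inhibitor Socs3 read 6.99 in Ct, 7.98 in DN and 9.28 in TS. Ifit1, an interferon-induced gene, read 7.28 in Ct, 3.71 in DN and 6.82 in TS, and its DN value lay far under the filter value. Macrophage markers had none of 14 past 1.5-fold, a median of 0.12 and a summed log2 level of 125.0 in Ct and 127.0 in DN. The largest were Adgre1 (0.45) and Mrc1 (0.44). T cell markers such as Cd3d and Cd3e lay under the filter. Endothelial markers had a median of -0.28, with Kdr (10.20 in Ct, 9.33 in DN and 9.46 in TS) and Flt1 (-0.70), both receptors for Vegfa, at least 1.5-fold lower of 13, and a summed log2 level of 120.9 in Ct and 117.0 in DN. Smooth muscle and pericyte markers had 3 of 12 lower (Kcnj8, Cspg4 and Tagln, at -0.87, -0.83 and -0.60), a median of -0.37 and a summed log2 level of 117.7 and 113.3. The markers Acta2 and Pdgfrb were equal in Ct and DN. Neutrophil and mast cell, lymphocyte and blood markers had no member past 1.5-fold. The part of these cells in the results above was not tested.

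The extremes of the comparison also held genes outside the lists. Ctxn3, which encodes a small membrane protein, read 6.69 in Ct, 10.89 in DN and 6.94 in TS, 18.5-fold above Ct. Tph1, the rate-limiting enzyme of serotonin synthesis outside the brain, read 6.16 in Ct, 9.92 in DN and 6.41 in TS, 13.5-fold above. Clrn1, known from hair cells of the ear, read 4.97 in Ct, 8.63 in DN and 5.58 in TS and passed the filter only through DN. Adap2 read 7.17 in Ct, 10.50 in DN and 7.41 in TS. The DN array stood apart for all of these, with TS within 1 log2 unit of Ct. The glutathione-dependent enzyme Mgst2 read 7.61 in Ct, 10.93 in DN and 8.07 in TS, and Padi2, which converts arginine to citrulline in proteins, read 8.27 in Ct, 11.44 in DN and 7.40 in TS. Dhrs9, a retinoid dehydrogenase, read 5.30 in Ct, 8.41 in DN and 5.43 in TS and also passed the filter only through DN. Tac4, a tachykinin precursor, read 5.65 in Ct, 8.40 in DN and 6.03 in TS, under the filter value in Ct. The endothelial lipase Lipg read 7.16 in Ct, 9.68 in DN and 7.99 in TS, and Sncg, or gamma-synuclein, read 9.63 in Ct, 12.05 in DN and 10.52 in TS. Vash2, a tubulin carboxypeptidase, read 8.07 in Ct, 10.83 in DN and 10.02 in TS, so TS was also high.

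On the lower side, Tecrl, an endoplasmic reticulum protein of heart and muscle, read 9.83 in Ct, 6.78 in DN and 6.86 in TS, 8.31-fold below Ct and as low in TS. Slc41a3, a magnesium transporter, read 9.47 in Ct, 6.59 in DN and 7.06 in TS, likewise low in both. Zfp474 read 9.25 in Ct, 6.07 in DN and 8.37 in TS, and the phosphatase Ppm1j read 8.62 in Ct, 5.53 in DN and 7.82 in TS. Lrrc39, an M-band protein, read 10.82 in Ct, 8.04 in DN and 9.97 in TS. Mlf1 read 10.60 in Ct, 8.28 in DN and 10.65 in TS and Cmbl read 9.64 in Ct, 7.68 in DN and 9.91 in TS, 2 genes on which TS stood next to Ct. Vgll2, a muscle cofactor of TEAD factors, read 9.85 in Ct, 7.54 in DN and 8.80 in TS, and Crym, which binds thyroid hormone, read 8.91 in Ct, 6.63 in DN and 7.59 in TS. The peroxisomal oxidase Acox2 read 7.05 in Ct, 4.95 in DN and 6.22 in TS.

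**Figure D5:**
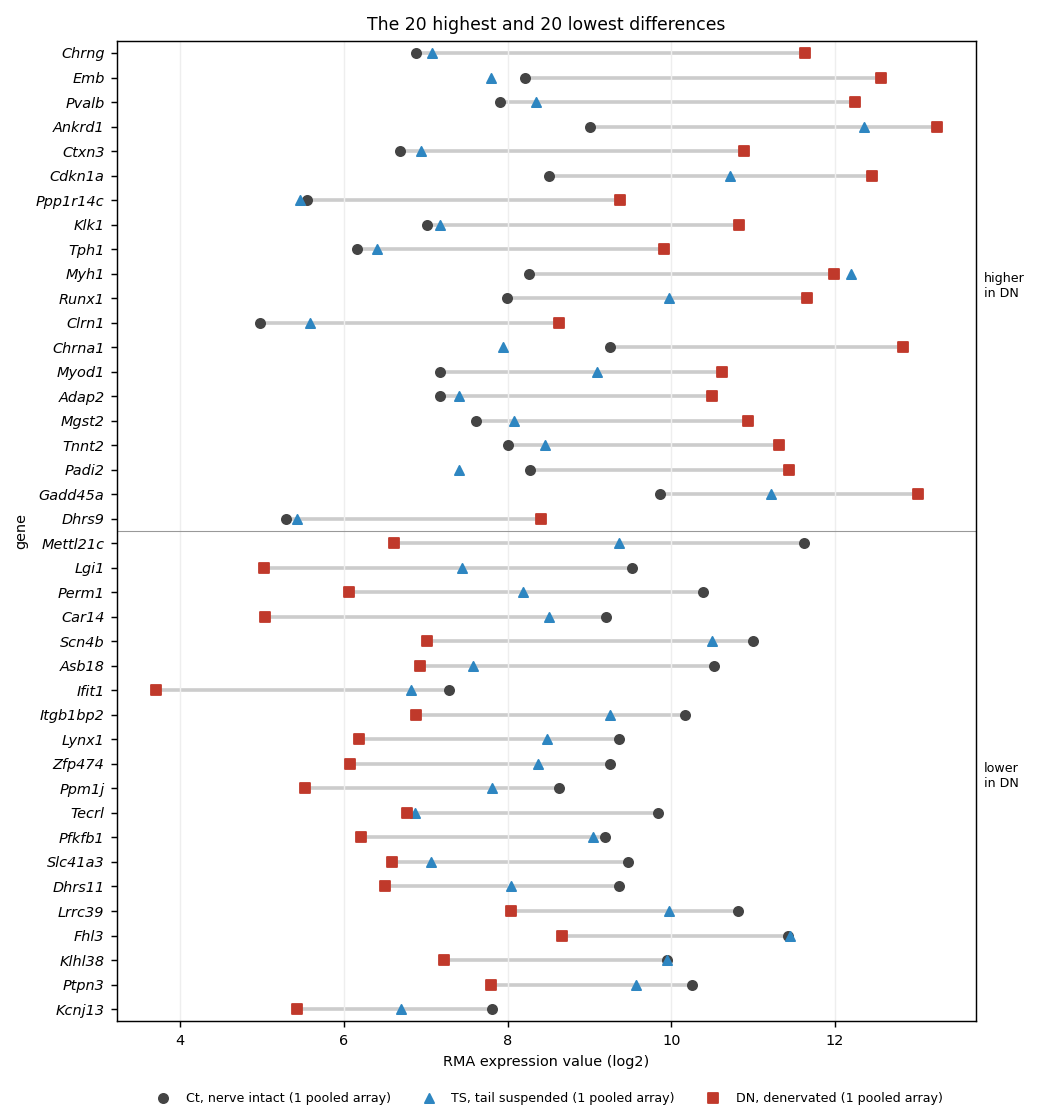
The 20 genes with the highest and the 20 with the lowest DN minus Ct difference (vertical axis), with their log2 values (horizontal axis). Uncharacterised loci and olfactory, vomeronasal and small RNA symbols were passed over. Each marker is 1 pooled array (dark grey circle Ct, blue triangle TS, red square DN), and a grey bar joins Ct and DN. The blue triangle lies near the dark grey circle for Chrng and Klk1 (7.17 against 7.02) and near the red square for Tecrl (6.86 against 6.78) and Myh1.

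Differences of 2-fold were more frequent among bright genes. With the compared genes cut into 4 equal classes of mean level, 0.906% of the dimmest class were at least 2-fold higher and 0.709% lower, and 66.8% were equal in Ct and DN, while in the brightest class 3.82% were higher, 3.62% lower and 24.0% equal. Among the genes past 2-fold, 10 of the higher ones read below 5.72 in Ct and 14 of the lower ones below it in DN, so those differences rest on a dim value.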

How the data were processed

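Pooled RNA of 3 groups was measured on 1 array each. Per the labels, the authors summarized probe signals over core exons with RMA in Affymetrix Expression Console, which the submitters' processing notes name too, and deposited 1 value per probe set and array. For its version, the annotation and the genome build, the answer is not given in the sources used here. The deposited values were read as log2 from their range, and arrays give no count from which a precision could be computed. Of 29170 probe sets, 15310 had 1 gene symbol in the platform annotation, 323 had several and 13537 none, and 15279 of the first were matched by identifier to the RefSeq table of GRCr8, used for names only. The brightest probe set stood for a gene, and the filter was the 30th percentile of the mean over 3 arrays. DN minus Ct and TS minus Ct were then taken per gene, with no test. Counts used limits of 2-fold for all genes and 1.5-fold for lists, and list levels are sums of log2 values over members past the filter.

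The genes and lists were chosen with earlier results of these data known. Genes named were the 40 highest and 40 lowest, up to 6 members per list with the largest difference and 2 with the smallest, and a fixed set of nerve, atrophy and fibre genes. Among the 40 highest and 40 lowest, uncharacterised loci and olfactory, vomeronasal and small RNA symbols were passed over. Named after their values were seen were 38 others: Acta2, Agrn, Bsg, Cacnb1, Camk2b, Dok7, Eno3, Esrra, Esrrg, Fbxo30, Fbxo31, H19, Id2, Inhba, Kcna5, Kcnab1, Mstn, Myh6, Myot, Myoz1, Myoz2, Ndufb4, Nedd4, Pkia, Plin2, Ppp3ca, Prox1, Rapsn, Rcan1, Rilp, Ryr3, Sgcd, Sirt3, Sox6, St8sia2, Tead1, Tnnc1 and Tnni2, besides Atp2a1 and further familiar fibre and channel genes that appear only in plots. Probes of close copies (the fast myosins, Mt1 and Mt2A, the tubulins) may share signal. Alternatives were quantile normalization, centring on the median, removal of a loess trend (span 0.3), adding 32 to each linear value, other filters and probe set rules, and limits of 1.5-fold and 3-fold. Counting was also run on simulated shifts larger than the 2-fold limit, without the exact ties of these arrays. That run checks the counting and says nothing of the error of the values. The work used Python 3.11.15 with matplotlib 3.10.9, statsmodels 0.14.6, scipy 1.17.1, pandas 2.3.3 and numpy 2.4.6.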

Additional observations from a re-analysis of the deposited data

Results flagged for a closer look

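The array also held 6566 probe sets past the filter that carried no gene symbol or several, 6448 of them none, and the comparison by gene did not use them. Of these 6566, 65 were at least 2-fold higher in DN than in Ct and 110 were at least 2-fold lower. Both are smaller shares than the 2.24% of compared genes that passed 2-fold in each direction. The probe set 10768036 read 6.30 in Ct, 11.69 in DN and 6.17 in TS. Its difference of 5.39 is larger than that of any named gene. The probe set 10921831 read 6.99 in Ct, 11.26 in DN and 6.63 in TS, and 10920868 differed by 3.31. On the lower side, 10819318 read 11.26 in Ct, 7.88 in DN and 11.88 in TS, and 10765508 and 10734701 differed by -3.24 and -3.12. In each of these 6 the TS value lay nearer to Ct than to DN.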

How the results depend on the processing

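No paired analysis was possible because each group had 1 array, and for the same reason no array could be left out. At 1.5-fold the counts were 501 higher and 562 lower (47.13% higher), and at 3-fold 95 and 71 (57.23% higher). Under the other scalings, filters and probe set rules, 2-fold counts ran from 197 to 232 higher and from 187 to 234 lower. Of the list medians, none past 1.5-fold changed sign under any alternative run. The mean of the members moved 8 of them: 2.59 for receptor subunits, 0.34 for endplate organizers, 0.49 for myogenic regulators, 1.18 for developmental genes, -0.33 for ubiquitin ligases, 0.30 for the TGF-beta family, 0.47 for p53 targets and -0.55 for carbonic anhydrases and transporters. The adipocyte median was 0.51 with no filter and 1.32 with the 50th percentile filter. Of 436 named genes, 41 moved with 32 added on the linear scale, which shrinks dim values, among them Lgi1 (-3.57), Chrng (4.43), Mettl21c (-4.61) and Ifit1 (-2.06). No other scaling or probe set rule moved one that it kept. The 50th percentile filter kept 382 of the 436, and the rule of genes with 1 probe set kept 420. Ifit1 failed the filter when TS was left out of it. Genes close to 2-fold, such as Ampd3, Ache, Colq, Tuba1a and Tuba1b, were under 2-fold in 1 or more alternatives. What limits the values is the single pool per group, background at dim probes, compression near the top of the scale and the exact ties, and list medians within about 0.1 of 0 give no direction. A second probe set of the same gene disagreed with the chosen one by 0.28 at the 95th percentile of 629 cases. Both were read on the same arrays, so this value holds no error between arrays or pools, for which there is no measure here.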

Other observations

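Further genes among the 40 highest and lowest differences belong to membranes, transport and signalling. Lrrn1, a leucine-rich repeat membrane protein, read 7.70 in Ct, 10.78 in DN and 8.01 in TS. Dclk1, a kinase that binds microtubules and is known from neurons, read 6.88 in Ct, 9.77 in DN and 7.56 in TS, and Tmem158 read 7.85 in Ct, 10.74 in DN and 8.15 in TS. Slc51a, a subunit of a bile acid and steroid transporter, read 5.16 in Ct, 8.10 in DN and 5.14 in TS, and Btla, a receptor of lymphocytes, read 5.31 in Ct, 7.75 in DN and 5.46 in TS, both dim in Ct and TS. Btla stood beside lymphocyte markers of which 4 of 13 listed were past the filter, with a summed log2 level of 27.4 in Ct and 27.5 in DN, and their part was not tested. Rhbdl2, a membrane protease, read 5.01 in Ct, 7.54 in DN and 5.57 in TS, a difference of 2.53. It passed the filter only through DN. Atp13a3, a polyamine transporter, read 9.63 in Ct, 11.97 in DN and 11.12 in TS, with TS above Ct as well.

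On the lower side, Mavs, the mitochondrial adaptor of antiviral signalling, read 10.78 in Ct, 8.41 in DN and 9.19 in TS. Dffa, the inhibitor of the nuclease that fragments DNA in apoptosis, read 10.20 in Ct, 7.95 in DN and 9.37 in TS, and the phosphatase Ptpn3 read 10.25 in Ct, 7.80 in DN and 9.56 in TS. Kcnj13, an inward rectifier, read 7.81 in Ct, 5.42 in DN and 6.70 in TS, and the sodium and proton exchanger Slc9a2 read 8.09 in Ct, 6.15 in DN and 7.68 in TS. St8sia5, a sialyltransferase of gangliosides, read 8.06 in Ct, 5.78 in DN and 7.18 in TS, and Tppp3, a tubulin-binding protein that also marks tendon sheath cells, read 11.84 in Ct, 9.91 in DN and 10.24 in TS.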
